A study of Mus musculus with 4 samples.

Results

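Rap1a and Rap1b are small GTPases of the Ras family, and the 10 genes described here are these 2 GTPases, the exchange factors Rapgef1, Rapgef2, Rapgef6 and Rasgrp2, the inactivating proteins Sipa1 and Sipa1l1, and the effectors Rassf5 and Apbb1ip. They were chosen by name from the 55401 genes listed in the deposited counts, and all 10 had enough counts to be tested. RNA was sequenced from splenic B220+ B cells, purified by sorting, of mice on the C57BL/6J background, with 2 libraries from NSD1B WT mice (Mb1-Cre+ NSD1+/+) and 2 from NSD1B KO mice (Mb1-Cre+ NSD1fl/fl). Both genotypes carried Mb1-Cre, in which the B lineage gene Cd79a drives the recombinase, so the genotypes differed in the floxed alleles of Nsd1, the gene of a histone H3 lysine 36 methyltransferase. The controls were littermates, and the methods describe young adult mice of both sexes without giving the age or sex behind a library. Whether the 2 libraries of a genotype came from different mice is not stated, so the p-values measure the spread between these libraries only, which may be technical.

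Rap1 cycles between an inactive form with bound GDP and an active form with bound GTP. Guanine nucleotide exchange factors (GEFs) load it with GTP, GTPase-activating proteins (GAPs) make it hydrolyse that GTP, and effectors bind the active form. In B cells, Rap1 is known to be activated downstream of the antigen receptor and chemokine receptors, and it acts on integrin adhesion, cell spreading and migration.

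Between 6769118 and 7566834 counts per library lay on genes, and 11657 genes were tested. Nsd1, the targeted gene, had 497 and 480 counts in NSD1B WT and 284 and 280 in NSD1B KO, a log2 fold change of -0.74 (SE 0.11, Benjamini-Hochberg adjusted p = 8.08e-08, edgeR quasi-likelihood test). These counts cover the whole gene and not the floxed exons alone. A gene was called when its adjusted p was below 0.05 and its fold change above 1.2. By this rule 78.2% of all tested genes were called, 37.1% as higher and 41.1% as lower in NSD1B KO, so that a call was the usual outcome for a gene in these libraries. The summed level of 10 B cell markers was 13110 to 13330 CPM (counts relative to the TMM-scaled library size) in NSD1B WT and 11520 to 12550 in NSD1B KO, and none of the 10 was at 0 in any library. The largest part of this sum was Cd79b, at 6825 and 8159 CPM in the 2 genotypes, which was not called. Of the 10, 7 were called lower, among them Pax5 (9.76-fold lower) and Cd79a (2.52-fold lower), and Ebf1 was called higher (1.68-fold). In bulk samples, fewer cells of a type and less RNA per cell cannot be told apart.

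Of the 10 genes, 3 were called higher in NSD1B KO (Rap1b, Sipa1 and Apbb1ip), 5 were called lower (Rapgef1, Rapgef2, Rapgef6, Sipa1l1 and Rassf5), and 2 were not called (Rap1a and Rasgrp2). The share of 80% called was near the 78.2% of all tested genes. In all 10 genes the libraries of the 2 genotypes did not overlap, against 88.1% of tested genes. The median log2 fold change of the 10 was -0.36, beside -0.10 for all tested genes. The calls ran in both directions within the GAPs and within the effectors, the 3 called GEFs were all lower, and Rap1b was the only GTPase called.

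**Figure D1:**
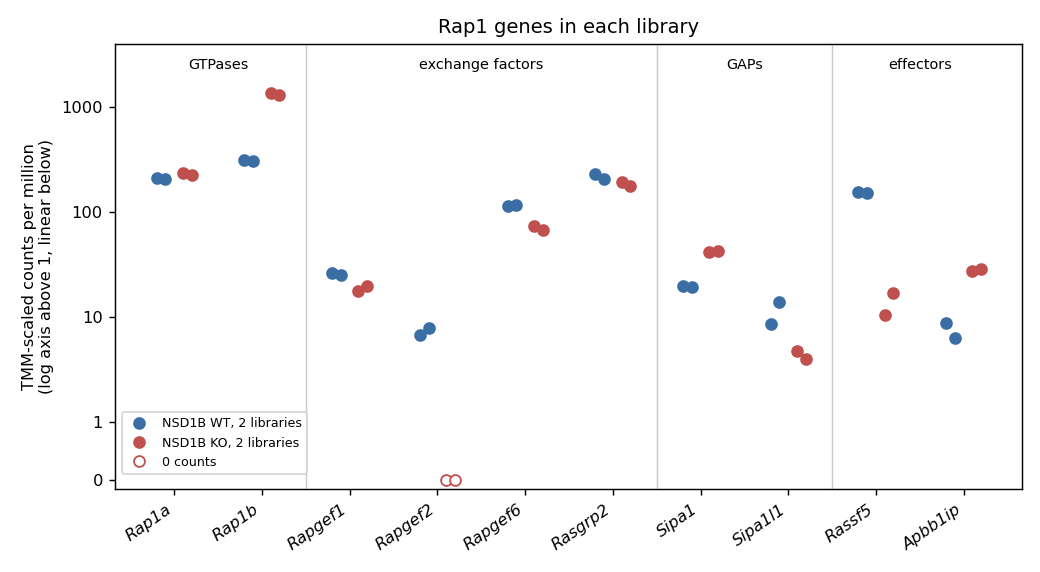
Level of each of the 10 genes in each library, in TMM-scaled CPM on a log axis above 1, with NSD1B WT libraries in blue and NSD1B KO libraries in red, and open circles for 0 counts. The 2 NSD1B KO points of each gene lie on 1 side of its 2 NSD1B WT points, Rap1b stands at 1308 and 1351 CPM in NSD1B KO, and Rapgef2 is at 0 there.

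Rap1a and Rap1b encode closely related proteins, and reads from similar stretches could be assigned to the wrong gene. The coding sequences are shown because they say how far the counts of the 2 genes can be kept apart. Rap1a (ENSMUSG00000068798.10) lies on the minus strand at chr3:105727267-105801336 and Rap1b (ENSMUSG00000052681.8) on the minus strand at chr10:117813871-117846035, both in GRCm38 (mm10). In the GENCODE M21 transcripts ENSMUST00000090678.10 and ENSMUST00000064667.8, both coding sequences are 555 nt long and differ at 102 positions, of which 79 are at the last base of a codon, so they are 81.6% identical. The first 90 coding nt lie in 2 exons within chr3:105745940-105750301 for Rap1a and within chr10:117822837-117824650 for Rap1b. Capitals mark the 13 positions at which the genes differ.
Rap1a coding start: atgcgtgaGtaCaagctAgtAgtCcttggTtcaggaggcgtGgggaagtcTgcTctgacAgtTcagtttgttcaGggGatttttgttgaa
Rap1b coding start: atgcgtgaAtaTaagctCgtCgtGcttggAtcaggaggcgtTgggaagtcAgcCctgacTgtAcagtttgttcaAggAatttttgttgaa

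The last 120 coding nt, positions 436 to 555 from the start codon, differ at 31 positions. They lie in 2 exons within chr3:105731985-105737787 for Rap1a and within chr10:117817374-117818498 for Rap1b. This stretch encodes the end of the protein, where the GTPases carry their lipid anchor.
Rap1a coding end: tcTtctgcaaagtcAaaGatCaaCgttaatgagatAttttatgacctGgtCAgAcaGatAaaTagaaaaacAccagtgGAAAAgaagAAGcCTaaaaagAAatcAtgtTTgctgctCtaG
Rap1b coding end: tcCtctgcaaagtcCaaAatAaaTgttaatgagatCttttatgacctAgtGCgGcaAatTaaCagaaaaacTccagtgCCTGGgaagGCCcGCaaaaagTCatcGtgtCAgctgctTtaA

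The differences were spread over the whole coding sequence. The longest stretch identical between the 2 mRNAs was 20 nt, at coding positions 79 to 98, and each of the 406 windows of 150 nt held 21 to 36 differing bases. No stretch of 150 nt from Rap1a or Rap1b occurred in a transcript of another gene. At 50 nt, no stretch of Rap1b did, and 8.27% of those of Rap1a were shared with the pseudogenes Rap1a-ps2, which had 0 counts, and Gm9392, which had 5 and 4 counts in NSD1B WT and 4 and 6 in NSD1B KO. The pseudogenes therefore held few counts beside those of Rap1a. Reads that were not unique stayed out of the gene counts, so these values do not show how many reads of the shared stretches were lost.

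**Figure D2:**
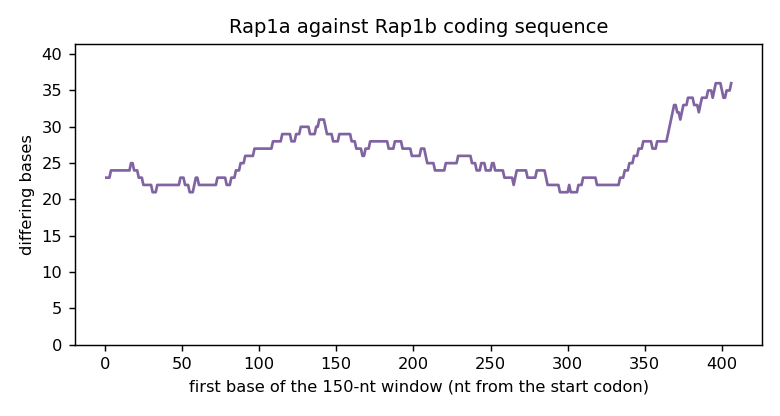
Number of bases that differ between the Rap1a and Rap1b coding sequences in each window of 150 nt, plotted against the first base of the window counted from the start codon. Every window holds 21 to 36 differing bases, with the highest numbers toward the end of the coding sequence.

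Of the Rap1 GTPases, Rap1b was called higher in NSD1B KO and Rap1a was not called. Rap1b had 2250 and 2265 counts in NSD1B WT and 9718 and 8798 in NSD1B KO, or 312 ± 3.56 and 1329 ± 30.2 CPM (mean ± SD, n = 2 libraries). Both NSD1B KO libraries lay far above both NSD1B WT libraries, and the libraries within a genotype were close. The Rap1b log2 fold change was 2.09 (SE 0.08, edgeR adjusted p = 9.38e-28), a 4.26-fold higher level. A change of this size or larger, up or down, was seen in 34.6% of all tested genes.

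Rap1a had 1510 and 1512 counts in NSD1B WT and 1682 and 1530 in NSD1B KO, or 209 ± 3.17 and 231 ± 4.47 CPM (mean ± SD, n = 2 libraries). The NSD1B KO libraries were slightly higher and did not overlap those of NSD1B WT. The Rap1a log2 fold change was 0.14, with a 95% interval of -0.02 to 0.30 (edgeR adjusted p = 0.105). When the dependence of fold changes on exon length and GC content was removed, its sign turned, to -0.02, and the interval leaves room for a small difference either way.

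Per kilobase of exon, merged over all annotated transcripts, Rap1b was the most abundant of the 10 genes in both genotypes, and Rap1a was second. The second place in NSD1B WT depends on the length used. Rasgrp2, with 24 transcripts and 12384 bp of merged exon, had 221 CPM there against 209 for Rap1a with 2607 bp. The Rap1b share of the summed Rap1a and Rap1b level per length was 57.4% (95% Clopper-Pearson interval 55.8 to 58.99) and 57.5% (55.9 to 59.1) in the NSD1B WT libraries. In the NSD1B KO libraries it was 83.9% (83.2 to 84.6) and 83.9% (83.1 to 84.6). The intervals of the genotypes did not overlap, and they cover counting error only. Summed per length, the 2 GTPases stood at 190.2 and 186.8 CPM per kb in NSD1B WT and at 557.9 and 540.7 in NSD1B KO. With their counts added into 1 gene, the log2 fold change was 1.58 (SE 0.08, edgeR adjusted p = 1.27e-23).

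**Figure D3:**
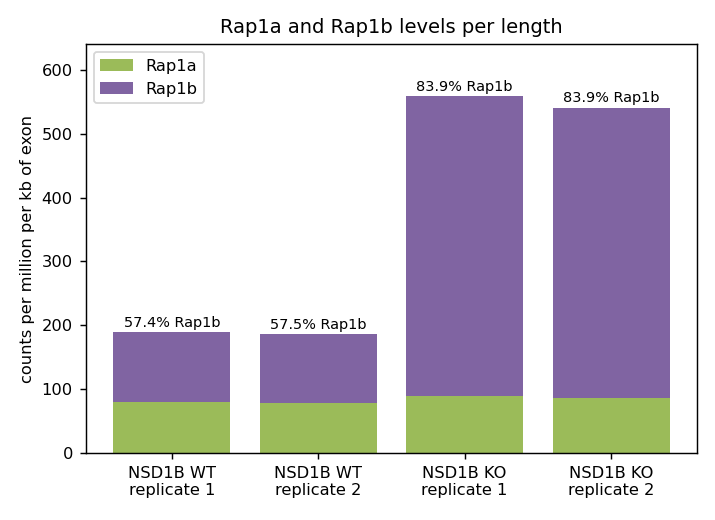
Level of Rap1a (green) and Rap1b (purple) in each library, stacked, in CPM per kb of exon, with the Rap1b share written above each bar. Rap1a takes a similar height in all 4 libraries, whereas the Rap1b part is taller in NSD1B KO, where its share is 83.9% against 57.4% and 57.5% in NSD1B WT.

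The 5 tested genes whose scaled log2 CPM over the 4 libraries, each centred on its own mean, lay closest to those of Rap1b were Ifit1bl1, Cep295, Rabggta, Ifngr1 and Akirin2, at Euclidean distances of 0.054, 0.056, 0.060, 0.061 and 0.063. With 4 libraries, this likeness mostly reflects the size of the difference between genotypes, and log2 fold changes of these genes ran from 2.06 for Akirin2 to 2.17 for Rabggta.

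Among the 4 GEFs, 3 were called lower and none was higher in NSD1B KO. Rapgef2, a Rap GEF with a PDZ domain, had 48 and 57 counts in NSD1B WT and 0 in both NSD1B KO libraries. Against a floor of 3 counts over the group, it was at least 33.7-fold lower (edgeR adjusted p = 3.07e-12). Its exons hold 14051 bp, and its level per length was already the lowest of the 10 genes in NSD1B WT. Of all tested genes, 18.9% were at 0 in both libraries of 1 genotype, so this outcome was not rare.

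Rapgef6, the close relative of Rapgef2, had 810 and 849 counts in NSD1B WT and 530 and 452 in NSD1B KO, or 115 ± 1.97 and 70.4 ± 4.57 CPM (mean ± SD, n = 2 libraries). Both NSD1B KO libraries were lower and the genotypes did not overlap. The Rapgef6 log2 fold change was -0.70 (SE 0.10, edgeR adjusted p = 6.15e-09), or 1.63-fold lower.

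Rapgef1, which Crk adaptors bring to the membrane, had 189 and 184 counts in NSD1B WT and 128 and 132 in NSD1B KO, or 25.8 ± 0.905 and 18.7 ± 1.30 CPM (mean ± SD, n = 2 libraries). The NSD1B KO libraries were lower without overlap, and the Rapgef1 log2 fold change was -0.47 (SE 0.17, edgeR adjusted p = 0.0101). This call was lost without NSD1B WT replicate 1 (log2 fold change -0.40) and with DESeq2's Wald test (-0.45, adjusted p = 0.105), at a similar size of change. It was also lost after correction for exon length and GC, where the change itself shrank to -0.18 (edgeR adjusted p = 0.310). Over all alternatives the adjusted p ran from 0.00268 to 0.452. Rapgef1 shares 327 bp of exon with Gm9823 on the opposite strand, which had 0 counts. That overlap is the whole of Gm9823, and the strand setting of the counting is not given. Its 0 counts therefore do not show whether Rapgef1 reads were lost there.

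Rasgrp2, a GEF for Rap1 that responds to calcium and diacylglycerol, had the highest level per length of the 4 GEFs in both genotypes. It had 1667 and 1528 counts in NSD1B WT and 1380 and 1203 in NSD1B KO, or 221 ± 17.2 and 185 ± 9.16 CPM (mean ± SD, n = 2 libraries). The NSD1B KO libraries were lower without overlap, at a log2 fold change of -0.25 with a 95% interval of -0.42 to -0.09. Its edgeR adjusted p was 0.00541, and it was not called because the change was 1.19-fold, just under the limit of 1.2. It passed the limit with library size alone or upper quartile scaling, and without NSD1B WT replicate 2 or without NSD1B KO replicate 1, where the log2 fold change was -0.31. In the other direction, the log2 fold change was -0.14 (edgeR adjusted p = 0.16) without NSD1B WT replicate 1 and -0.20 without NSD1B KO replicate 2. The adjusted p was also above 0.05 with DESeq2's Wald test (0.0584) and with a length and GC trend of degree 1 removed (0.233).

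**Figure D4:**
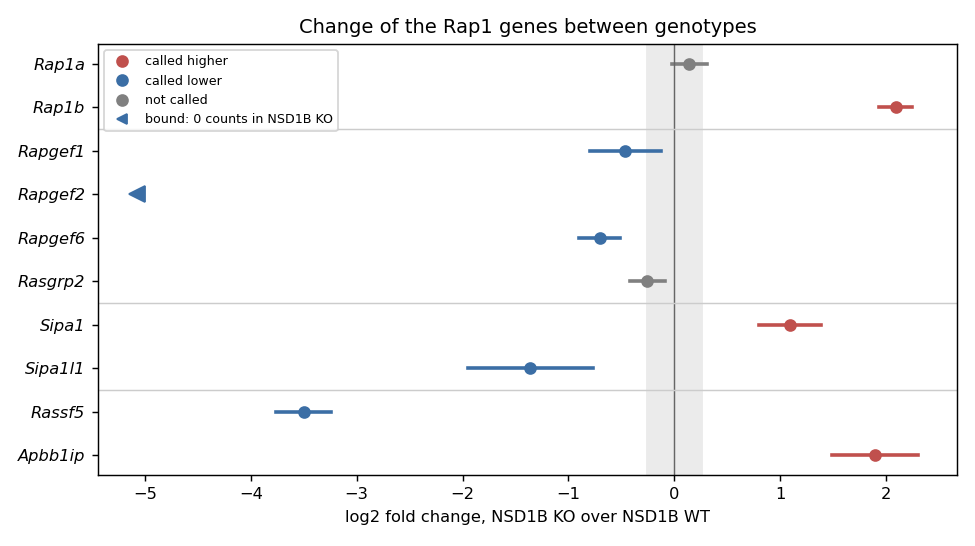
Log2 fold change of NSD1B KO over NSD1B WT for each of the 10 genes, with 95% intervals from edgeR, red for called higher, blue for called lower and grey for not called. The grey band marks fold changes under 1.2 and the triangle the bound for Rapgef2 (at least 33.7-fold lower), and the values of the other 9 genes reach from -3.50 for Rassf5 to 2.09 for Rap1b.

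The 2 GAPs moved apart. Sipa1, which inactivates Rap1 in lymphoid cells, had 142 and 143 counts in NSD1B WT and 297 and 288 in NSD1B KO, or 19.7 ± 0.22 and 42.0 ± 1.09 CPM (mean ± SD, n = 2 libraries). Both NSD1B KO libraries stood at about the same, higher level, and the Sipa1 log2 fold change was 1.09 (SE 0.15, edgeR adjusted p = 3.51e-09). Sipa1l1, a larger protein of the same family, had 62 and 101 counts in NSD1B WT and 34 and 27 in NSD1B KO, or 11.2 ± 3.63 and 4.37 ± 0.503 CPM (mean ± SD, n = 2 libraries). The 2 NSD1B WT libraries differed from each other, and both were still above NSD1B KO. The Sipa1l1 log2 fold change was -1.36 (SE 0.29, edgeR adjusted p = 4.54e-05). Per length, Sipa1 made up most of the GAP sum, which was 5.17 and 5.51 CPM per kb in NSD1B WT and 9.71 and 10 in NSD1B KO.

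The 2 effectors also moved apart. Rassf5, whose RAPL isoform binds active Rap1 and the integrin LFA-1, had 1116 and 1121 counts in NSD1B WT and 76 and 114 in NSD1B KO, or 155 ± 2.002 and 13.8 ± 4.51 CPM (mean ± SD, n = 2 libraries). The fall of Rassf5 was the largest among the 9 genes counted in both genotypes. Its log2 fold change was -3.50 (SE 0.13, edgeR adjusted p = 4.07e-28), or 11.3-fold lower, and 26% of tested genes changed at least as much. Rassf5 shares 78 bp of exon with Eif2d on the opposite strand, which had 104 and 99 counts in NSD1B WT and 0 in NSD1B KO. Since the strand setting of the counting is not given, reads in that overlap cannot be assigned with certainty, and the counts do not separate the Rassf5 isoforms.

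Apbb1ip, known as RIAM, links active Rap1 to talin and so to integrins. It had 63 and 46 counts in NSD1B WT and 199 and 193 in NSD1B KO, or 7.55 ± 1.78 and 28.2 ± 0.731 CPM (mean ± SD, n = 2 libraries). Both NSD1B KO libraries were higher, and the Apbb1ip log2 fold change was 1.90 (SE 0.20, edgeR adjusted p = 8.22e-12). Per length, Rassf5 exceeded Apbb1ip in both NSD1B WT libraries, at a mean of 38.7 against 1.02 CPM per kb. In NSD1B KO their means were 3.44 and 3.80, and the values of the libraries overlapped.

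In order of level per length, the NSD1B WT libraries had Rap1b (108 CPM per kb) and Rap1a (80.2) first, then Rassf5 (38.7), Rasgrp2 (17.9), Rapgef6 (8.79), Sipa1 (4.46), Rapgef1 (3.49), Apbb1ip (1.02), Sipa1l1 (0.878) and Rapgef2 (0.516). Apbb1ip and Sipa1l1 overlapped in this order, and no other neighbours did. In NSD1B KO the order was Rap1b (461), Rap1a (88.5), Rasgrp2 (14.96), Sipa1 (9.51), Rapgef6 (5.40), Apbb1ip (3.80), Rassf5 (3.44), Rapgef1 (2.53), Sipa1l1 (0.341) and Rapgef2 at 0. Here Apbb1ip overlapped Rassf5, and Rassf5 overlapped Rapgef1. The GEF sum was 31.6 and 29.7 CPM per kb in NSD1B WT and 23.5 and 22.3 in NSD1B KO, and the effector sum 40.3 and 39.2 against 6.37 and 8.11. The order within a genotype and these sums depend on exon lengths merged over all transcripts of a gene, above all for Rasgrp2.

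Several of the 10 genes are also used by other blood cells, so markers of those cells were measured in the same libraries. The paper reports that sorting efficiency was checked and that RNA was taken only from sorted cells of high purity. Of 8 platelet markers, Ppbp, Itga2b, Gp9, Gp5 and Gp6 were at 0 in all 4 libraries, and the sum of the list, mostly Pf4, was 154 to 167 CPM in NSD1B WT and 226 to 235 in NSD1B KO. The 8 myeloid markers summed to 4570 to 4673 CPM in NSD1B WT and 5734 to 6082 in NSD1B KO, and none was at 0 in all 4 libraries. Lyz2 made up most of this sum, and of the 7 tested myeloid markers 5 were higher, among them Csf1r (14.7-fold) and Cd14 (11.6-fold). Itgam was lower (log2 fold change -0.80), and S100a8 fell from 39 and 28 counts to 0 in both NSD1B KO libraries. Erythroid markers summed to 35.6 to 39.6 CPM in NSD1B WT and 1690 to 1944 in NSD1B KO, with Klf1 and Epor at 0. The 8 T cell markers summed to 59.9 to 65.2 CPM over all libraries, with Cd4 and Cd8a at 0, but the 5 that were tested were called in both directions. Cd3d and Cd3g were higher, at log2 fold changes of 0.93 and 1.07, whereas Lck (-3.30) and Trac (-1.29) were lower and Thy1 fell from 41 and 35 counts to 0. The 6 NK cell markers summed to 55.8 to 59.6 CPM in NSD1B WT and 88.5 in both NSD1B KO libraries, with Eomes, Gzma and Ncr1 at 0. Nkg7 carried most of that sum, Klrd1 was at 0 in NSD1B WT only, and Klrb1c, with 26 and 21 counts in NSD1B WT, was at 0 in NSD1B KO. The 6 plasmacytoid dendritic cell markers stood at 63.1 to 68.3 against 105.9 to 106.4 CPM, with Siglech, Cox6a2, Klk1 and Pacsin1 at 0 and nearly the whole sum from Bst2, and the 6 plasma cell markers at 267 to 273 against 230 to 231, with Sdc1 and Tnfrsf17 at 0 and 2 of the 4 tested in each direction. The myeloid, erythroid, platelet, NK and dendritic cell sums were higher in NSD1B KO, as Rap1b, Sipa1 and Apbb1ip were, although single genes carried all of these sums but the erythroid one and some myeloid and NK markers were lower. The part of these cells in the differences of the 10 genes was not tested.

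A wider list of 51 genes of the Rap1 pathway was read from the same test. Of these, 36 were tested, and 19 were called higher and 13 lower, with 4 not called. This made 88.9% called, beside 78.2% of all tested genes, and the median log2 fold change was 0.35. Of the 15 genes that were not tested, 10 had 0 counts in all libraries and the others had at most 3 counts in a library.

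The Rap2 GTPases are the nearest relatives of Rap1, and both of those tested were nearly or fully without counts in 1 genotype. Rap2b had 45 and 63 counts in NSD1B WT and 0 in NSD1B KO, at least 34.7-fold lower (edgeR adjusted p = 2.81e-12), and it shares 3962 bp of exon with genes on the opposite strand. Rap2c, named after its values were seen, had 1 and 0 counts in NSD1B WT and 291 and 263 in NSD1B KO, a ratio of 575 with a 95% counting interval of 103 to 22760. Their directions were opposite, and neither pair of libraries overlapped the other.

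Of 8 tested GEFs and adaptors of the wider list, 5 were higher and 3 lower. The 3 lower genes were the GEFs Rasgrp1, Rapgef3 and Rasgrp4. Rasgrp3, also a GEF, rose from 80 and 105 counts to 212 and 195 (log2 fold change 1.19, SE 0.18, edgeR adjusted p = 4.83e-08). Rapgef3, Rasgrp4 and Rasgrp3 were named after their values were seen. Crkl, an adaptor that recruits Rapgef1, had 58 and 79 counts in NSD1B WT and 278 and 249 in NSD1B KO (3.99-fold higher, log2 SE 0.18, edgeR adjusted p = 3.14e-14). Rasgrp1, a diacylglycerol-regulated Ras GEF, had 1220 and 1328 counts against 776 and 793 (log2 fold change -0.64, SE 0.09, edgeR adjusted p = 6.37e-09). Neither gene overlapped between genotypes. Of 3 tested GAPs, Rasa2 was higher, with 234 and 242 counts against 402 and 342 and a log2 fold change of 0.70. Rasa3, a GAP that acts on Rap1 as well as on Ras, fell from 1987 and 2079 counts to 981 and 894, at a log2 fold change of -1.06 (SE 0.08, edgeR adjusted p = 4.28e-16). The remaining GAP, the Sipa1 relative Sipa1l3, had 32 and 15 counts in NSD1B WT and 2 and 0 in NSD1B KO, a ratio of 0.0442 with a 95% counting interval of 0.00520 to 0.169, and was named after its values were seen.

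Of 14 tested effectors, 9 were higher, 4 lower and 1 not called. Fyb, an adaptor between signalling proteins and integrins, rose from 20 and 21 counts to 130 and 85 (log2 fold change 2.43, SE 0.29, edgeR adjusted p = 2.53e-10). Vasp, which promotes actin filament growth, fell from 171 and 148 counts to 33 and 45 (log2 fold change -1.97, SE 0.23, edgeR adjusted p = 1.42e-10). Afdn, which joins cell junctions to actin, had 34 and 48 counts in NSD1B WT and 0 in NSD1B KO and was at least 26.3-fold lower. Tln1 and Fermt3, the genes of talin and kindlin that activate integrins, were named after their values were seen, and their log2 fold changes were 0.997 and 1.28. Stk4, the kinase that pairs with RAPL, and its relative Stk3, named in the same way, were called in opposite directions, at -0.36 and 1.29. Fyb, Afdn, Tln1 and Fermt3, as well as Icmt and Itga4, share part of their exons with other genes, and the strand setting of the counting is not given, so their counts are less certain.

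Rap1 reaches the membrane through a geranylgeranyl lipid, and of the 5 tested genes of this processing 3 were higher, 1 lower and 1 not called. Rce1, the protease that trims the end of prenylated proteins, had 0 counts in NSD1B WT and 134 and 122 in NSD1B KO, at least 88.6-fold higher (edgeR adjusted p = 3.70e-18). Icmt, which methylates the trimmed end, rose from 31 and 28 counts to 149 and 133, at a log2 fold change of 2.31. Pggt1b, the beta subunit of the geranylgeranyl transferase, fell from 132 and 124 counts to 52 and 57, at a log2 fold change of -1.17. Fnta, the alpha subunit of the same transferase, named after its values were seen, rose from 960 and 1000 counts to 1643 and 1444, at a log2 fold change of 0.71. The 2 subunits thus had opposite calls.

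Of the 4 genes of integrins on which Rap1 acts, 2 were called lower and 2 were not called. Itga4 had 1308 and 1384 counts in NSD1B WT and 1040 and 1009 in NSD1B KO (log2 fold change -0.34, SE 0.08, edgeR adjusted p = 0.000321), and its partner Itgb1 was also called lower, at -0.33. The LFA-1 subunits Itgal and Itgb2 were not called, at log2 fold changes of -0.07 (95% interval -0.30 to 0.16) and 0.05 (-0.15 to 0.25). Itgb1, Itgal and Itgb2 were named after their values were seen.

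**Figure D5:**
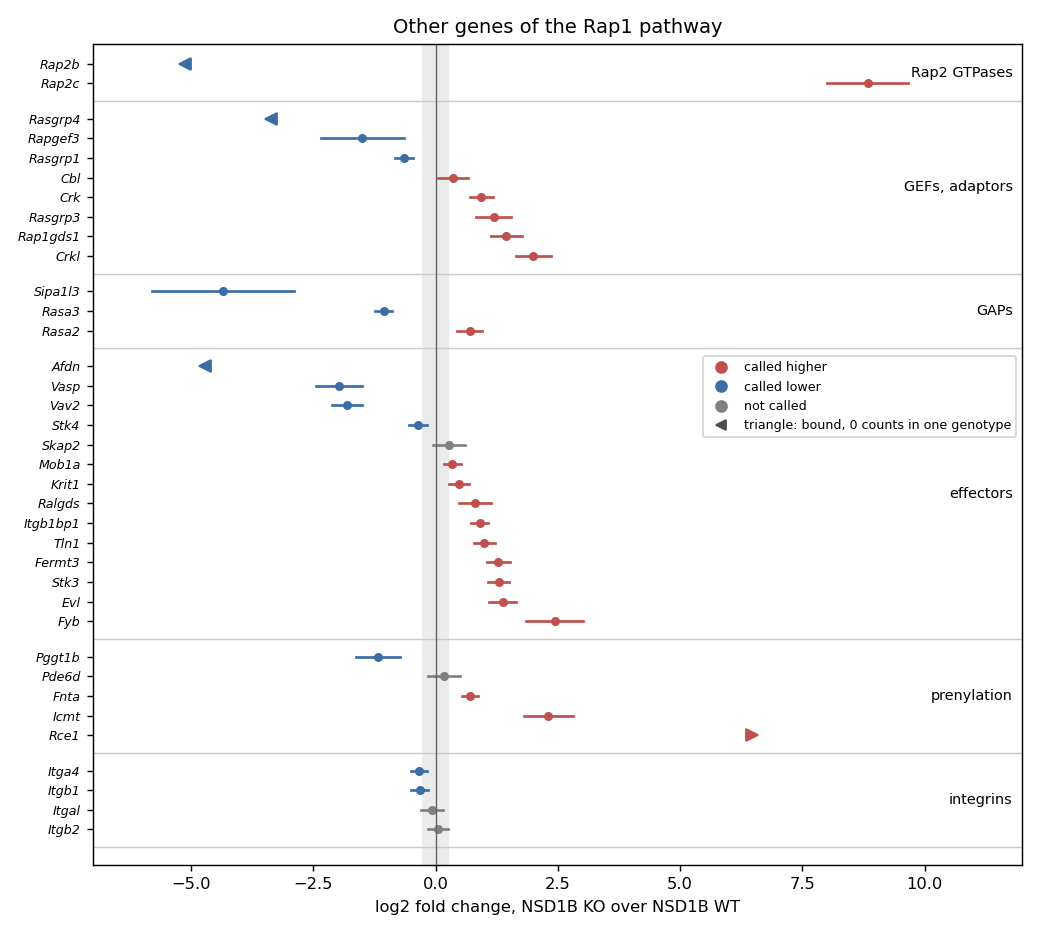
Log2 fold change of NSD1B KO over NSD1B WT for the 36 tested genes of the wider list, grouped by role, with 95% intervals from edgeR, red for called higher, blue for called lower and grey for not called. Triangles are bounds for genes at 0 in 1 genotype, the fitted value of Rap2c rests on 1 count in NSD1B WT, and 19 genes lie to the right against 13 to the left among those called.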

How the data were processed

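RNA of sorted splenic B220+ cells was sequenced as paired-end reads. For each of 4 libraries, the deposited values are raw counts per gene, whole numbers that the authors did not normalize. The submitters' processing notes name mm10, Bowtie2 and Cufflinks, and neither the counter nor its strand option is given in the sources used here. Reads on no gene (44.3% to 44.6% of counted reads), ambiguous reads (2.21% to 2.41%) and reads that were not unique (11.2% to 13.2%) stayed out of library sizes. Of 55401 gene identifiers, 55141 matched GENCODE M21 (GRCm38) without their version, which gave positions, exon lengths and transcript sequences. Rapgef1 and Rapgef6 carry another version there.

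Genes were kept by filterByExpr of edgeR 4.0.16 (R 4.3.3) (minimum count 10, minimum total 15), scaled by TMM on the kept genes, and compared by the quasi-likelihood test with Benjamini-Hochberg adjustment over all 11657 tested genes. The SE is the log2 fold change divided by the square root of F. Genes at 0 in a genotype were set against a floor of 3 counts per genotype (0.2155 CPM in NSD1B KO, 0.2075 in NSD1B WT). Bounds from this floor cover counting error only. With 2 libraries against 2, a two-sided permutation test on 1 gene cannot go below 0.333, so none was made. The mean chi-square between libraries was 2.95 in NSD1B WT and 3.77 in NSD1B KO, so the libraries of a genotype differ by more than counting error. Alternatives used DESeq2 1.42.0, limma 3.58.1, other scalings and filters, a replicate block, and a loess trend (span 0.5). Tables were made with Python 3.11.15 and pandas 2.3.3.

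The genes and lists were chosen with earlier results of these data known. Named are the 10 genes and, of each wider list, the called genes with the largest rise and fall at a mean log2 CPM of at least 3 with counts in every library. Genes at 0 in 1 genotype with at least 50 counts in the other, the 5 genes closest to Rap1b, Nsd1 and markers are also named, and 1 marker gene is not reported here. The order of scaling and filtering, the version of the quasi-likelihood fit and the degree of the loess trend were not fixed in advance. They were settled after 8 configurations of the edgeR fit had been run and seen, and the others shown were added afterwards. On simulated counts of 11287 genes for the comparison of NSD1B KO with NSD1B WT, 156 of 200 genes changed by 1 on the log2 scale were recovered, with 5 false calls, and 122 of 125 at a level of 8 CPM or more. A first requirement on the share recovered overall was not met and was replaced by one at that level. The simulation changed only these 200 genes and used 1 dispersion for all genes, whereas 78.2% of tested genes were called in the data. Its rates of recovery and of false calls therefore need not hold for these libraries.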

Additional observations from a re-analysis of the deposited data

How the results depend on the processing

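Over 22 alternatives, 4 of them chosen after seeing the data, Rap1b, Rapgef6, Sipa1, Rassf5 and Apbb1ip kept their direction and call. Rapgef2 did so in the 21 that tested it. Rap1b ranged from 1.97 to 2.13 on the log2 scale. With each library left out in turn, Rap1b ran from 2.06 to 2.13 and Rap1a from 0.12 to 0.19. Rap1a was never called on its own, and its sign turned with the length and GC trend removed (-0.0186, adjusted p = 0.825) and with that trend and the replicate block (-0.0186, 0.811). A trend of degree 1 in place of 2 gave 0.01 (0.901), so the sign hangs on that choice, which was made after results were seen. Summed with Rap1b, the 2 genes gave 1.58. Rasgrp2 ranged from -0.33 to -0.11 (adjusted p 9.08e-05 to 0.233). Rapgef1 lost its call in 6 alternatives, Sipa1l1 in 1 (adjusted p below 1e-05 with a log2 fold change above 0.5), and Rasgrp2 gained one in 6. With 1 CPM required in all 4 libraries, 5846 of 8334 tested genes were called, in place of 9119 of 11657. Both the number tested and the share called were thus lower. Of the Rap1 genes described first, 8 of the 9 tested were called under this filter. How near their share called lies to that of all tested genes therefore depends on the filter. Per kb of the longest transcript, the Rap1b share was 56.9% in NSD1B WT and 83.59% in NSD1B KO.

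TMM on all genes before the filter called 9139 genes, 4366 higher and 4773 lower, with 2.10 for Rap1b. The robust and newer quasi-likelihood fits called 9135 and 9129. The same number of the 10 genes, 8, was called in these 3. The adjusted p of Rap1b depended strongly on this choice, from 9.38e-28 as reported to 1.19e-149 in the robust fit of edgeR, and to 3.47e-06 in limma-voom. With the length and GC trend removed, more genes were called higher (4737) than lower (4226), the reverse of the 4324 and 4795 as reported. The replicate block called 8960 genes, and the correlation of deviations between libraries with the same number was 0.0645, so the numbers are not shown to pair the libraries.

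Depth limits the low genes. Rapgef2, Sipa1l1 and Apbb1ip had fewer than 10 CPM on average in at least 1 genotype, and 0 counts in NSD1B KO bound Rapgef2 by counting error only. The bounds of Rap2b, Afdn and Rce1 have the same limit.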
